A study of Drosophila melanogaster with 52 samples.

Results

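Larvae lacking the DNA-binding protein Pho were compared directly with larvae lacking the DNA-binding protein Spps, 3 RNA-Seq libraries (PhoKO) against 4 (SppsKO). These 7 libraries were chosen by their labels from 52 samples in the series, and no wild-type library entered the comparison. The tissue was imaginal discs together with brains of the third larval instar in Drosophila melanogaster, and RNA was selected for poly(A). Per the series' design text, Spps was removed maternally and zygotically, whereas pho was removed zygotically. Maternal Pho product was therefore not removed by the genotype of the PhoKO larvae. Alleles, genetic background, larval sex and animals per library are not stated in the labels. Whether replicates of a genotype had different parents or dissection days is not stated either, so each p-value refers to variation among the libraries alone, and part of that variation may be technical. Of 16502 genes listed, 9514 reached 1 FPKM (a fragment count scaled for transcript length and library size) in at least 3 of the 7 libraries and were tested.

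Polycomb group proteins keep developmental genes silent, in part through methylation of histone H3 at lysine 27. In Drosophila their complexes are brought to Polycomb response elements by sequence-specific DNA-binding proteins. Pho is the homolog of mammalian YY1 and belongs to the PhoRC complex, and it shares a DNA motif with its paralog Pho-like, encoded by phol. Spps is a zinc finger protein of the Sp1/KLF family that binds GT-rich motifs at such elements. A direct contrast of both mutants asks where loss of one recruiter leaves a transcript at another level than loss of the other, without reference to a control.

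The libraries separated by genotype, with spread inside each group. Principal component analysis gave a first axis, holding 41.2% of the variance, that placed PhoKO between 13.1 and 32.2 and SppsKO between -19.7 and -14.6. The second axis, holding 23.9%, set SppsKO 4 (27.0) apart from SppsKO 1 to 3 (-12.4 to -9.52) and PhoKO 1 (-18.0) apart from PhoKO 2 and 3 (9.78 and 14.1). Depth relative to SppsKO 1, taken from the step size of low values, was 60.2% in PhoKO 1 and between 82.3% and 100% in the others, and absolute depth is unknown. Markers of the labelled tissue were present in every library. The neuronal gene elav lay between 60.4 and 68.7 FPKM in PhoKO and between 60.8 and 62.8 FPKM in SppsKO, and the wing disc gene nub between 26.7 and 31.1 FPKM and between 25.9 and 27.8 FPKM. Transcripts of tissues that can stay attached in dissection were present as well. The larval serum protein gene Lsp2 of the fat body ranged from 154.6 to 1395 FPKM in PhoKO and from 347.9 to 537.2 FPKM in SppsKO, and the muscle myosin gene Mhc from 4.35 to 56.3 FPKM and from 1.42 to 4.14 FPKM.

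Differences between the mutants were many and mostly small. By limma on log2(FPKM + 1), with Benjamini-Hochberg adjustment over all 9514 genes, 1539 genes were called at an adjusted p under 0.05, which is 16.2% of those tested. Of these, 744 were higher in PhoKO (7.82%) and 795 were lower (8.36%). The median size of a called difference was 0.33 on the log2 scale, and 161 genes (1.69%) were called with a difference of 1 or more, 111 of them higher and 50 lower in PhoKO. Libraries of the groups did not overlap for 3012 of all tested genes (31.7%) and for 1534 of the called ones. At an unadjusted limma p under 0.05, 3052 of the 9514 genes passed. The median over all tested genes was -0.01. Of the called genes, 656 (42.6%) were also called in each of the 7 fits that left out a library. A gene that fell below the filter in such a fit, and so was not tested there, was not counted among them. The total fell to 884 without PhoKO 2, to 964 without SppsKO 1, to 832 without SppsKO 2 and to 940 without SppsKO 3. It was 1055 without PhoKO 1, 1271 without PhoKO 3 and 1530 without SppsKO 4.

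**Figure D1:**
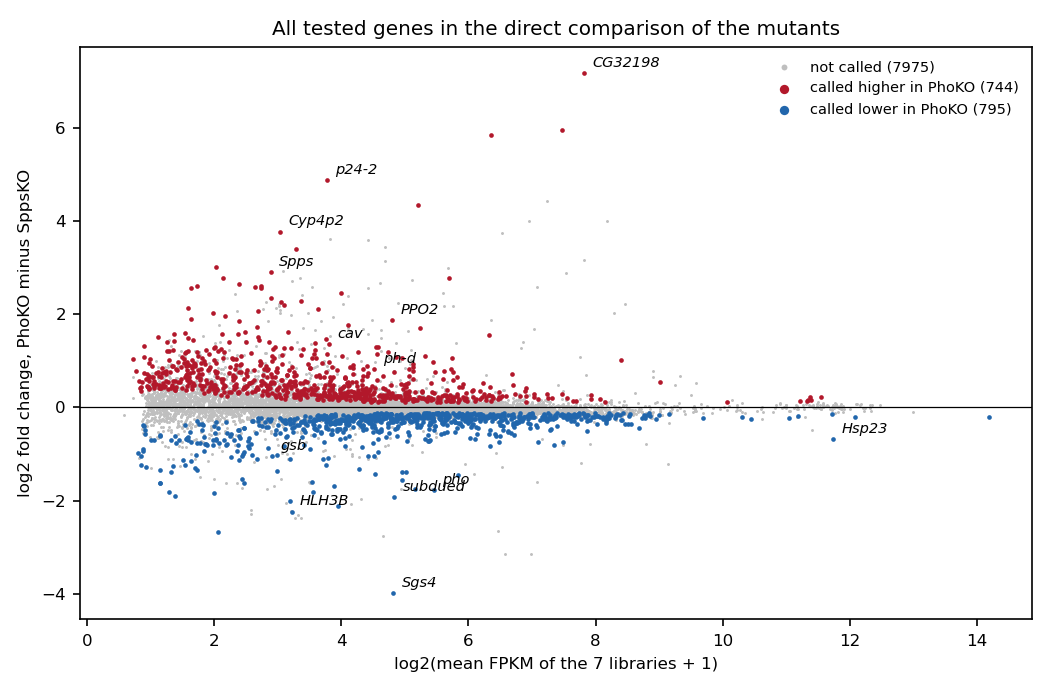
Each point is a tested gene, with log2 of its mean FPKM over the 7 libraries plus 1 on the x axis and the log2 fold change of PhoKO minus SppsKO on the y axis. Called genes are coloured, 744 higher in PhoKO and 795 lower, and most lie within 1 of 0, since 161 were called with a difference of 1 or more.

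Each targeted gene was low in the libraries labelled with its loss. The Spps transcript stood at 13.7, 13.8 and 13.5 FPKM in PhoKO 1, 2 and 3, and at 0.877, 1.04, 0.920 and 0.988 FPKM in SppsKO 1 to 4. The groups were far apart, with a ratio of means of 14.3 and a log2 difference of 2.91 (SE 0.07, limma adjusted p = 1.42e-06). The pho transcript stood at 15.3, 18.7 and 18.3 FPKM in PhoKO and at 61.3, 58.5, 60.4 and 66.8 FPKM in SppsKO. Here PhoKO was lower in every library, by -1.77 on the log2 scale (SE 0.08, limma adjusted p = 1.9e-05), and the PhoKO mean was 0.283 of the SppsKO mean. The paralog phol, at 32.6 to 34.7 FPKM in PhoKO and 30.9 to 32.4 FPKM in SppsKO, was not called (log2 difference 0.09, SE 0.04, adjusted p = 0.155).

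One gene beside Spps differed strongly as well. The gene cav, which encodes the telomere-capping protein HOAP, is next to Spps on arm 3R in the current gene order. It stood at 19.7, 21.4 and 20.3 FPKM in PhoKO and at 7.21, 6.91, 7.17 and 8.35 FPKM in SppsKO, without overlap. Its log2 difference was 1.35 (SE 0.07, limma adjusted p = 4.66e-05). Within 10 places of Spps 4 of 16 tested genes were called, and within 10 places of pho 1 of 13, beside 16.2% of all tested genes. The other called neighbours of Spps were Apc2 (-0.16), CHORD (-0.16) and jar (-0.22), all lower in PhoKO, and each of these calls was lost without PhoKO 1, PhoKO 2, SppsKO 1 or SppsKO 2, with adjusted p between 0.0608 and 0.141. Apc2 and jar were also lost without SppsKO 3 (adjusted p = 0.0733 and 0.0761), and CHORD without PhoKO 3 or SppsKO 4 (adjusted p = 0.0939 and 0.0529). The called neighbour of pho was Rfabg, a lipoprotein gene of the fat body, at 0.67, and that call was lost without PhoKO 1, PhoKO 3 or any of SppsKO 1, 2 and 3 (adjusted p 0.0989 to 0.112).

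Among genes of the Polycomb group itself, differences beyond the targeted genes included the paired genes ph-d and ph-p, which encode the Polyhomeotic subunit of Polycomb repressive complex 1. Levels of ph-d were 28.9, 29.8 and 29.7 FPKM in PhoKO and 16.8, 16.6, 17.1 and 14.6 FPKM in SppsKO, a log2 difference of 0.82 (SE 0.06, limma adjusted p = 0.000191). Levels of ph-p were 46.4, 51.3 and 53.3 FPKM in PhoKO and 36.9, 35.8, 36.4 and 29.9 FPKM in SppsKO, a log2 difference of 0.53 (SE 0.08, adjusted p = 0.00591). Neither gene overlapped between the groups, but the copies are near-identical and can share fragments, so the split between them is uncertain. The gene Su(z)2, which encodes a relative of the repressive complex subunit Psc, was higher in PhoKO too, at 12.4, 12.8 and 12.2 FPKM against 8.88, 8.66, 8.61 and 7.02 FPKM (log2 difference 0.54, SE 0.08, adjusted p = 0.00452). Of 30 Polycomb group and recruiter genes tested, 4 were higher in PhoKO (Spps, ph-d, ph-p and Su(z)2) and 1 was lower (pho), with a median of 0.05. The 5 called include both mutated genes, and make up 16.7% of the list beside 16.2% of all tested genes. Of 26 trithorax group genes, whose products keep developmental genes active, 0 were higher and 2 were lower in PhoKO: the menin gene Mnn1 (-0.38, SE 0.05, adjusted p = 0.00443) and the Brahma complex gene Bap60 (-0.26, SE 0.04, adjusted p = 0.00529). These 2 make up 7.69% of the list, beside 16.2% of all tested genes. At an unadjusted p under 0.05, 4 trithorax group genes passed, beside 3052 of all 9514 tested genes.

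Hox genes set segment identity and are the classical targets of Polycomb repression. Of 8 Hox genes 7 were tested, pb being below the filter, and 14.3% were called beside 16.2% of all tested genes. Ubx was the 1 called, at 12.9, 16.6 and 18.8 FPKM in PhoKO and 12.1, 11.4, 10.7 and 12.3 FPKM in SppsKO. The lowest PhoKO library lay just above the highest SppsKO library, and the log2 difference was 0.42 (SE 0.12, limma adjusted p = 0.0453). The call was lost when PhoKO 2, PhoKO 3 or any 1 SppsKO library was left out (adjusted p 0.0688 to 0.131), with no filter (adjusted p = 0.0702), under quantile normalization (adjusted p = 0.0743) and with plain eBayes (adjusted p = 0.0622). Scr stood at 0.26 (SE 0.11, adjusted p = 0.171), Antp at 0.14 (SE 0.05, adjusted p = 0.0763) and lab at -0.27 (SE 0.09, adjusted p = 0.0934). With quantile normalization, plain eBayes and array weights lab was called lower in PhoKO (adjusted p = 0.0371, 0.015 and 0.0451), so that the 1 Hox call under quantile normalization and under plain eBayes was lab. The posterior genes abd-A and Abd-B stood at -0.04 (SE 0.13) and 0.04 (SE 0.12), and Dfd at 0.04 (SE 0.08). The sign of abd-A turned without PhoKO 3 (0.0657) and without SppsKO 2 (0.00497), that of Abd-B under quantile normalization (-0.0907) and without PhoKO 2 (-0.0361), and that of Dfd under quantile normalization (-0.12).

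Transcription factor genes known as Polycomb targets differed in both directions. Of 103 tested, 19 were higher in PhoKO and 10 lower, together 28.2% beside 16.2% of all tested genes. Their median was 0.06. Without PhoKO 2 the counts were 12 and 6, and without SppsKO 3 they were 15 and 5. Many of these genes also belong to the eye, neural and disc lists below, so the counts are not independent.

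In this group gsb had the smallest adjusted p. The Pax gene gsb, a segment polarity gene, stood at 4.18, 3.54 and 3.33 FPKM in PhoKO and at 8.41, 7.55, 8.94 and 9.98 FPKM in SppsKO. All SppsKO libraries were above all PhoKO libraries, and the log2 difference was -1.05 (SE 0.10, limma adjusted p = 0.00081). Its neighbour gsb-n, active in neurons, stood at 2.72, 2.55 and 2.66 FPKM against 4.34, 3.97, 4.19 and 4.80 FPKM (-0.55, SE 0.08, adjusted p = 0.00419). Of 9 Pax genes tested, 2 were higher and 3 lower in PhoKO, and the higher count was 1 without PhoKO 2, PhoKO 3 or any 1 SppsKO library. The POU factor gene pdm2 was also lower in PhoKO, at 4.97, 6.18 and 5.83 FPKM against 10.1, 9.47, 9.12 and 8.59 FPKM (-0.63, SE 0.08, adjusted p = 0.00257). It acts in the temporal sequence of neuroblasts, and the factor after it in that sequence, cas, was higher in PhoKO: 28.5, 25.5 and 20.3 FPKM against 15.7, 16.9, 15.1 and 12.8 FPKM. The log2 difference of cas was 0.67 (SE 0.13, adjusted p = 0.0146), and its call was lost without PhoKO 2 (adjusted p = 0.0525). These were the called members among 18 temporal identity genes, 11.1% beside 16.2% of all tested genes. Without SppsKO 4 the counts were 4 higher and 3 lower.

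The Dorsocross genes are T-box factor genes that lie side by side and act in the amnioserosa and the heart of the embryo. Doc3 stood at 7.60, 8.15 and 9.14 FPKM in PhoKO and at 13.2, 13.4, 12.3 and 12.6 FPKM in SppsKO, a log2 difference of -0.58 (SE 0.06, limma adjusted p = 0.00146). Doc1 stood at 10.3, 12.2 and 12.1 FPKM against 16.6, 16.5, 16.1 and 15.8 FPKM (-0.47, SE 0.06, adjusted p = 0.00313). Doc2 stood at -0.14 and was not called (SE 0.08, adjusted p = 0.268). Of 6 T-box genes tested, 2 were lower in PhoKO and 0 were higher. Other factors of appendage patterning included genes higher in PhoKO. The antennal selector ss stood at 9.29, 9.87 and 11.9 FPKM in PhoKO and at 6.16, 5.91, 6.16 and 5.81 FPKM in SppsKO (0.69, SE 0.08, adjusted p = 0.00186), and the leg and wing gene rn at 28.8, 30.3 and 29.1 FPKM against 23.9, 23.05, 23.2 and 20.6 FPKM (0.36, SE 0.05, adjusted p = 0.00491). Of 16 leg and antenna genes, 4 were higher and 2 lower in PhoKO, and without PhoKO 2 the counts were 2 and 0. They were 2 and 1 without PhoKO 3 and 3 and 0 without SppsKO 1, SppsKO 2 or SppsKO 3, and the lower count was 1 without PhoKO 1.

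**Figure D2:**
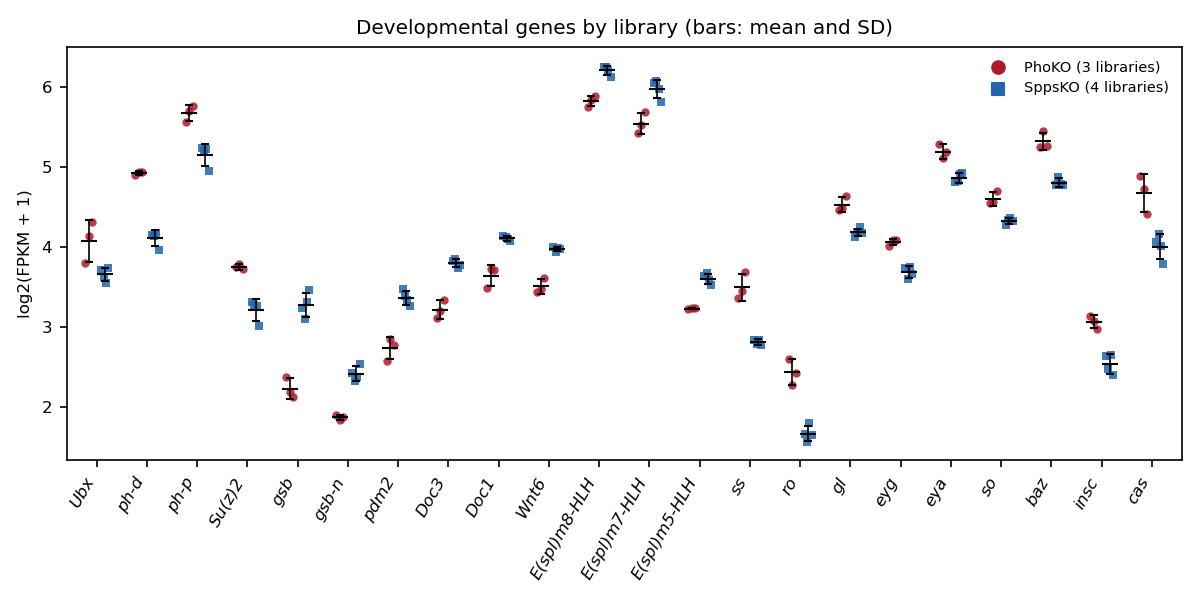
Levels of developmental genes are shown as log2(FPKM + 1), with 1 point per library, circles for PhoKO and squares for SppsKO, and bars for the mean and SD. The groups are apart for every gene shown, with ph-d, ph-p, Su(z)2, ss, ro and baz higher in PhoKO and gsb, pdm2, Doc3, Doc1 and the E(spl) genes lower, while Ubx is apart by a narrow margin.

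Genes of the eye primordium were mostly higher in PhoKO. The retinal determination network is a set of transcription factors that commit cells of the eye-antennal disc to an eye fate. Of its 10 tested genes, 6 were higher in PhoKO and 1 was lower, with a median of 0.27 beside -0.01 for all genes. All 10 passed an unadjusted p under 0.05, as did 3052 of all 9514 tested genes. The Pax-like gene eyg stood at 15.19, 15.97 and 16.01 FPKM in PhoKO and 12.3, 11.1, 12.4 and 11.7 FPKM in SppsKO (0.38, SE 0.05, limma adjusted p = 0.00313). The phosphatase and co-activator gene eya stood at 38.3, 33.5 and 35.3 FPKM against 27.0, 27.3, 29.1 and 29.5 FPKM (0.33, SE 0.05, adjusted p = 0.0078). Its partner so stood at 22.4, 22.5 and 24.9 FPKM against 18.4, 19.2, 19.6 and 19.1 FPKM (0.27, SE 0.05, adjusted p = 0.0089). In none of these did the groups overlap. The remaining higher members were danr (0.30), dac (0.17) and Optix (0.30). The call of dac was lost without PhoKO 2 or PhoKO 3 (adjusted p = 0.0609 and 0.0515), and that of Optix without SppsKO 2 (adjusted p = 0.0525). The lower member was the Pax6 gene toy (-0.16, SE 0.04, adjusted p = 0.0336). That call was lost without any 1 PhoKO library, without SppsKO 2 or SppsKO 3 (adjusted p 0.0581 to 0.0965), after rescaling to a common sum and in a fit with all 10 libraries. The other Pax6 gene, ey, stood at 0.26 and was not called (SE 0.08, adjusted p = 0.0609).

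Several photoreceptor genes were higher as well. Of 13 tested, 6 were higher in PhoKO and 0 were lower, with a median of 0.16. The homeobox gene ro, which acts in photoreceptors R2 and R5, stood at 5.04, 3.83 and 4.37 FPKM in PhoKO and at 2.15, 1.95, 2.46 and 2.12 FPKM in SppsKO. Its log2 difference was 0.77 (SE 0.10, limma adjusted p = 0.00297). The photoreceptor factor gl stood at 21.1, 21.5 and 23.8 FPKM against 16.4, 17.1, 18.0 and 17.1 FPKM (0.35, SE 0.05, adjusted p = 0.00536). The proneural gene of the eye, ato, was called at 0.25 (SE 0.04, adjusted p = 0.00624), and phyl, which acts in R7 and R1/R6 fate, at 0.31 (SE 0.06, adjusted p = 0.0114). Summed levels of disc epithelium markers lay between 452.4 and 525.9 FPKM in PhoKO and between 514.6 and 531.2 FPKM in SppsKO. In bulk samples, fewer cells of a type and less RNA per cell cannot be told apart, and the share of eye disc tissue in each library was not tested.

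Several targets of Notch signalling were lower in PhoKO. The Enhancer of split complex holds bHLH repressor genes and Bearded family genes that Notch activates during lateral inhibition. Of 7 bHLH genes, 4 were lower and 0 higher, with a median of -0.21. Of 7 tested Bearded family genes, 6 were lower and 0 higher, with a median of -0.28, and this count was 3 without SppsKO 1, SppsKO 2 or SppsKO 3. E(spl)m8-HLH stood at 53.1, 56.4 and 58.2 FPKM in PhoKO and at 75.3, 75.1, 73.6 and 69.3 FPKM in SppsKO. Its log2 difference was -0.39 (SE 0.05, limma adjusted p = 0.0019). E(spl)m7-HLH stood at 41.9, 45.0 and 50.4 FPKM against 65.5, 66.5, 61.8 and 55.5 FPKM (-0.44, SE 0.08, adjusted p = 0.0109), and E(spl)m5-HLH at 8.30, 8.38 and 8.43 FPKM against 11.4, 11.7, 11.0 and 10.5 FPKM (-0.37, SE 0.05, adjusted p = 0.00313). Outside the complex, Brd was lower in PhoKO as well, at 82.3, 76.5 and 74.0 FPKM against 95.6, 97.0, 100.3 and 109.1 FPKM (-0.37, SE 0.06, adjusted p = 0.00591). E(spl)malpha-BFM was called at -0.36 (SE 0.06, adjusted p = 0.0089).

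Neighbours of the complex formed a run of called genes in the same direction. In gene order the 5 genes were E(spl)m4-BFM, E(spl)m5-HLH, E(spl)m6-BFM, E(spl)m7-HLH and E(spl)m8-HLH, lower in PhoKO by between 0.19 and 0.44 on the log2 scale. E(spl)m6-BFM lost its call without SppsKO 1, SppsKO 2 or SppsKO 3 (adjusted p 0.052 to 0.0728). Of the 13 tested ligands, receptor and processing genes of the Notch pathway itself, 0 were higher and 1 was lower in PhoKO. This share is 7.69%, beside 16.2% of all tested genes. The lower count was 0 without PhoKO 2 or any of SppsKO 1, 2 and 3.

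Some proneural and neuroblast genes were higher in PhoKO. The hairy gene h, a repressor of proneural genes, stood at 35.3, 37.6 and 35.6 FPKM in PhoKO and at 29.2, 29.3, 29.1 and 27.8 FPKM in SppsKO (0.32, SE 0.04, limma adjusted p = 0.0019). With ato it made up the 2 higher members of 10 proneural genes and antagonists, of which 0 were lower. These 2 make up 20% of the list, beside 16.2% of all tested genes, and the list median was 0.009. Of 17 neuroblast genes, 6 were higher in PhoKO and 0 lower, with a median of 0.09 (0.0518 without SppsKO 4), and this count was 3 without PhoKO 1 or SppsKO 2. The polarity gene baz stood at 37.2, 42.7 and 37.6 FPKM against 26.4, 28.5, 26.7 and 26.5 FPKM (0.52, SE 0.06, adjusted p = 0.00132). The adaptor gene insc, which orients the division of neuroblasts, stood at 7.77, 7.43 and 6.85 FPKM against 5.21, 4.52, 5.28 and 4.25 FPKM (0.52, SE 0.09, adjusted p = 0.00719). The cofactor gene nab was called at 0.24 (SE 0.05, adjusted p = 0.0154). Of 4 Snail family genes, 2 were higher, with sna at 0.41 (SE 0.06, adjusted p = 0.00601), and this count was 1 in every fit without 1 library except that without PhoKO 3.

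Some glial and peptide genes were called higher in PhoKO. Of 18 glial genes, 6 were higher and 0 lower, with a median of 0.19. The count was 3 without SppsKO 2, and 1 in a fit with the replicate number as a block. The sodium pump gene nrv2 stood at 140.4, 134.2 and 142.7 FPKM in PhoKO and at 100.5, 103.2, 101.4 and 108.7 FPKM in SppsKO (0.42, SE 0.04, limma adjusted p = 0.000772). The glial master gene repo stood at 22.8, 21.3 and 19.0 FPKM against 16.4, 16.6, 16.5 and 17.7 FPKM (0.31, SE 0.06, adjusted p = 0.0155), which was not called without PhoKO 2 (adjusted p = 0.0527). Summed FPKM of the glial list lay between 898.9 and 939.4 in PhoKO and between 813.4 and 841.4 in SppsKO, so these sums did not overlap. Of 26 pan-neuronal genes limma called 0, and 8 passed an unadjusted p under 0.05, beside 3052 of all 9514 tested genes. The median of the 26 was 0.24, and it was 0.127 without PhoKO 1 and 0.11 without SppsKO 4. One gene was called higher without PhoKO 1 or PhoKO 3, and 2 were called lower without SppsKO 4. The summed FPKM, 455.6 to 539.6 in PhoKO and 391.0 to 492.5 in SppsKO, overlapped.

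Of 27 neuropeptide genes, 6 were higher in PhoKO and 0 lower, 22.2% beside 16.2% of all tested genes. The higher count was 3 without PhoKO 1 or SppsKO 1, and 1 in a fit with the replicate number as a block. The median of the 27 was 0.17, 0.0507 without PhoKO 1 and 0.283 without PhoKO 3. The gene for the moulting hormone bursicon, Burs, stood at 4.22, 3.51 and 2.64 FPKM in PhoKO and at 1.43, 1.66, 1.11 and 1.16 FPKM in SppsKO. The log2 difference of Burs was 0.92 (SE 0.15, limma adjusted p = 0.00624). The feeding peptide gene sNPF was called at 0.34 (SE 0.06, adjusted p = 0.0121). NPF, at 22.2, 15.97 and 14.5 FPKM against 9.92, 9.76, 11.3 and 11.4 FPKM, was called at 0.66 (SE 0.14, adjusted p = 0.02), and lost that call without SppsKO 1 or SppsKO 2 (adjusted p = 0.0582 and 0.06).

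Several blood cell genes were higher in PhoKO. Hemocytes circulate in the larval haemolymph or attach to tissues, and crystal cells store the prophenoloxidases that darken wounds. Of 14 tested genes, 7 were higher in PhoKO and 0 lower, with a median of 0.96 beside -0.01 for all genes. At least 7 were called in each fit that left out a library. PPO1 stood at 29.4, 34.3 and 19.6 FPKM in PhoKO and at 6.38, 5.68, 6.82 and 11.2 FPKM in SppsKO. PPO2 stood at 46.1, 54.4 and 39.1 FPKM against 9.96, 9.80, 11.3 and 17.9 FPKM. Both prophenoloxidase genes were apart, with SppsKO 4 the highest of its group, at log2 differences of 1.76 (SE 0.27, limma adjusted p = 0.0108) and 1.87 (SE 0.23, adjusted p = 0.00496).

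Plasmatocyte genes behaved likewise. The clotting gene Hml stood at 10.4, 11.7 and 5.98 FPKM in PhoKO and at 2.31, 2.46, 1.99 and 3.36 FPKM in SppsKO (1.5, SE 0.22, limma adjusted p = 0.00528). The scavenger receptor gene Sr-CI stood at 5.93, 10.0 and 6.37 FPKM against 1.75, 1.76, 1.504 and 2.15 FPKM (1.57, SE 0.17, adjusted p = 0.00122). The phagocytosis receptor gene NimC1 was called at 1.26 (SE 0.15, adjusted p = 0.00215) and the peroxidasin gene Pxn at 0.90 (SE 0.12, adjusted p = 0.00392). The summed FPKM of the 14 genes lay between 258.6 and 306.7 in PhoKO and between 120.7 and 185.6 in SppsKO. For He and eater, other markers of the list, the groups overlapped, at 35.4 to 64.8 FPKM against 14.7 to 41.2 FPKM and at 4.98 to 8.38 FPKM against 2.93 to 7.76 FPKM. The number of attached blood cells and the RNA per cell cannot be told apart here.

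Several basement membrane genes, which blood cells and fat body express, were higher too. Both collagen IV chains were higher in PhoKO. Cg25C stood at 39.0, 44.2 and 31.2 FPKM in PhoKO and at 14.4, 15.9, 15.6 and 18.5 FPKM in SppsKO (1.18, SE 0.13, limma adjusted p = 0.00163). The second chain, vkg, stood at 23.5, 25.3 and 17.6 FPKM against 8.85, 9.50, 9.39 and 11.2 FPKM (1.10, SE 0.13, adjusted p = 0.00205). The linker gene Ndg was called at 0.76 (SE 0.09, adjusted p = 0.00199) and the matricellular gene BM-40-SPARC at 0.43 (SE 0.08, adjusted p = 0.0116). Of 13 genes in this list, 6 were higher and 0 lower, and the higher count was 3 without PhoKO 2 or PhoKO 3. Of 8 tested peptidoglycan recognition genes, 3 were higher and 0 lower: PGRP-LC at 1.09 (SE 0.14, adjusted p = 0.00257), PGRP-LB at 0.77 (SE 0.10, adjusted p = 0.00278) and PGRP-LA at 0.55 (SE 0.09, adjusted p = 0.0062). PGRP-LB was not called in the fit with all 10 libraries (adjusted p = 0.0714). Of 11 antimicrobial peptide genes 0 were called, and 1 passed an unadjusted p under 0.05, beside 3052 of all 9514 tested genes.

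**Figure D3:**
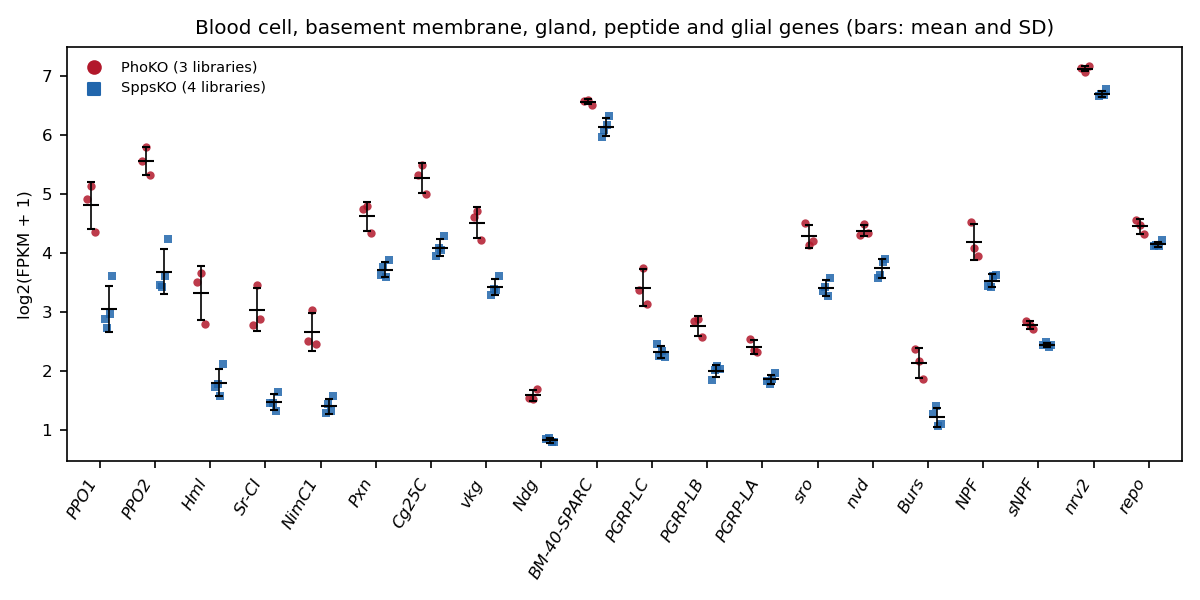
Levels of blood cell, basement membrane, peptidoglycan recognition, ring gland, peptide and glial genes are shown as log2(FPKM + 1). There is 1 point per library, with circles for PhoKO and squares for SppsKO, and bars for the mean and SD. PhoKO is above SppsKO for every gene shown, and SppsKO 4 is the highest SppsKO library for PPO1 and PPO2.

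Ring gland genes of steroid synthesis were partly higher in PhoKO. The ring gland lies on the brain and makes ecdysone. Of 14 tested genes of ecdysone and juvenile hormone synthesis, 4 were higher and 0 lower, with a median of 0.28 and summed FPKM of 487.1 to 557.3 in PhoKO and 422.6 to 480.3 in SppsKO. The dehydrogenase gene sro stood at 21.8, 16.7 and 17.4 FPKM in PhoKO and at 9.29, 9.79, 8.64 and 11.0 FPKM in SppsKO (0.87, SE 0.10, limma adjusted p = 0.0019). The Rieske oxygenase gene nvd, which acts on cholesterol, stood at 18.9, 21.6 and 19.2 FPKM against 10.9, 11.4, 13.5 and 14.03 FPKM (0.64, SE 0.09, adjusted p = 0.00452). For the ring gland marker phm the groups overlapped, at 93.94 to 118.9 FPKM in PhoKO and 71.88 to 95.14 FPKM in SppsKO. They overlapped for dib too, at 4.851 to 9.889 FPKM against 4.557 to 6.507 FPKM. The marker spok did not overlap, at 64.43 to 71.68 FPKM against 50.73 to 63.25 FPKM. Of 20 ecdysone response genes, 4 were higher and 1 was lower, together 25% beside 16.2% of all tested genes. Without PhoKO 2 or SppsKO 2, 0 were higher. With PhoKO 1, SppsKO 1 or SppsKO 3 left out the higher counts were 1, 2 and 1.

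Of 21 Wnt pathway genes, 7 were lower in PhoKO and 0 higher, with a median of -0.12 (-0.0577 without PhoKO 1). The ligand gene Wnt6 stood at 9.80, 10.1 and 11.2 FPKM in PhoKO and at 15.01, 14.3, 14.9 and 14.8 FPKM in SppsKO (-0.47, SE 0.05, limma adjusted p = 0.00149). Most of the other Wnt calls were lost in some fits that left out 1 library. The count was 4 without PhoKO 1, PhoKO 2 or SppsKO 4, and 1 without SppsKO 1 or SppsKO 2. The count was 2 without SppsKO 3 and 9 without PhoKO 3. It was 3 after rescaling to a common sum, with no filter and with plain eBayes. Of 20 EGF receptor pathway genes, 4 were higher and 1 was lower, together 25% beside 16.2% of all tested genes. The inhibitor gene aos was called at 0.24 (SE 0.04, adjusted p = 0.00742) and the protease gene ru at -0.26 (SE 0.05, adjusted p = 0.0138). The higher count was 2 without PhoKO 1, PhoKO 2 or SppsKO 1 and 1 without PhoKO 3 or SppsKO 2. Of 7 JAK/STAT genes, 2 were higher and 0 lower (28.6%, beside 16.2% of all tested genes). They were the feedback inhibitor Socs36E at 0.24 (SE 0.04, adjusted p = 0.00798) and the receptor gene et at 1.26 (SE 0.24, adjusted p = 0.0163). The call of et was lost without PhoKO 1 or PhoKO 2 (adjusted p = 0.054 and 0.0531).

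Among growth and death genes, the mitotic phosphatase gene stg stood at 79.1, 85.7 and 81.3 FPKM in PhoKO and at 64.8, 64.4, 63.3 and 63.4 FPKM in SppsKO. Its log2 difference was 0.35 (SE 0.04, limma adjusted p = 0.0011). The replication licensing genes dup and dpa were called at 0.25 (SE 0.04, adjusted p = 0.00698) and 0.20 (SE 0.04, adjusted p = 0.0154). Of 33 cell cycle genes, 9 were higher and 2 lower, counts that were 3 and 0 without PhoKO 2, 4 and 0 without SppsKO 1 or SppsKO 2, and 4 and 1 without SppsKO 3. The cell death activator rpr stood at 19.0, 18.8 and 18.2 FPKM in PhoKO and at 14.9, 14.2, 14.4 and 14.4 FPKM in SppsKO (0.34, SE 0.04, adjusted p = 0.00124). Of 20 stress and death genes, 2 were higher and 2 lower, together 20% beside 16.2% of all tested genes. Without PhoKO 1 or any of SppsKO 1, 2 and 3 these counts were 1 and 0, without PhoKO 2 they were 2 and 1, and without PhoKO 3 they were 1 and 2.

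Among housekeeping complexes, list medians were small. Of 32 proteasome subunit genes, 17 were lower in PhoKO and 0 higher, with a median of -0.13 (-0.0626 under quantile normalization). Prosbeta6 stood at 257.5, 250.5 and 248.4 FPKM in PhoKO and at 304.2, 309.9, 308.5 and 318.5 FPKM in SppsKO (-0.30, SE 0.03, limma adjusted p = 0.00117). Prosalpha4 was called at -0.20 (SE 0.03, adjusted p = 0.00725). The count was 7 without PhoKO 2, 11 without PhoKO 3, 9 without SppsKO 1, 8 without SppsKO 2 and 7 without SppsKO 3 and 7 under quantile normalization or in the fit with all 10 libraries. Of 72 mitochondrial ribosomal protein genes, 9 were lower and 0 higher, together 12.5% beside 16.2% of all tested genes. Their median was -0.10, with mRpL34 at -0.37 (SE 0.04, adjusted p = 0.0018). The count of lower genes was 3 without PhoKO 2 or SppsKO 2, 4 without PhoKO 3 and 5 without SppsKO 1. Of 88 cytosolic ribosomal protein genes, 7 were higher and 2 lower, together 10.2% beside 16.2% of all tested genes. Their median was 0.02, and the lower genes included RpS5b at -1.13. Without SppsKO 2, 0 were higher. With the other libraries left out, fits without PhoKO 1, PhoKO 2, PhoKO 3, SppsKO 1 and SppsKO 3 gave 3, 1, 3, 4 and 2 higher. Of 23 heat shock protein genes, 4 were lower and 0 higher (17.4% called), with 2 lower without PhoKO 2. The small heat shock gene Hsp23 stood at 2085, 2536 and 3068 FPKM in PhoKO and at 4324, 4094, 3997 and 3841 FPKM in SppsKO (-0.68, SE 0.12, adjusted p = 0.0123).

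**Figure D4:**
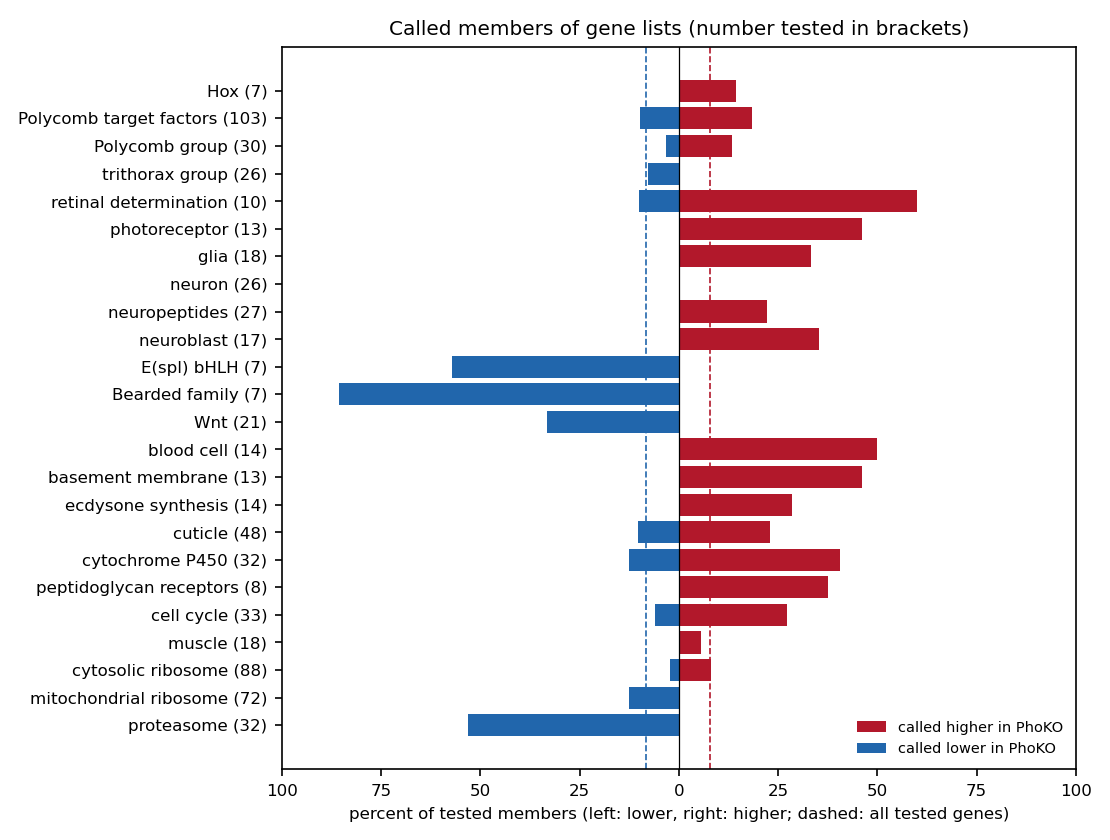
Bars give the percent of tested members of each gene list that were called higher (right) or lower (left) in PhoKO, with the number tested in brackets and dashed lines at 7.82% and 8.36%, the shares of all tested genes. Retinal determination, photoreceptor, blood cell and basement membrane genes extend to the right, and E(spl), Bearded family, Wnt and proteasome genes to the left.

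Detoxification and cuticle genes varied member by member. Of 32 cytochrome P450 genes, 13 were higher in PhoKO and 4 lower, with a median of 0.31 (0.0739 with no filter and 0.156 with a pseudocount of 5). The higher count was 7 without PhoKO 1, 8 without PhoKO 2, 6 without PhoKO 3, and 8 without SppsKO 1 or SppsKO 2. Each fit without a PhoKO library tested 28 of these genes, so a lower count there includes genes no longer tested. Cyp4p1 stood at 5.86, 4.42 and 3.02 FPKM in PhoKO and at 0.196, 0.164, 0.140 and 0.331 FPKM in SppsKO (2.14, SE 0.18, limma adjusted p = 0.000405). Its neighbour Cyp4p2 stood at 20.4, 23.98 and 5.44 FPKM against 0.0527, 0.0461, 0.0526 and 0.295 FPKM (3.77, SE 0.47, adjusted p = 0.00496). These are similar copies and can share fragments. Both passed the filter through their PhoKO libraries alone, and the fits without a PhoKO library did not test them. Cyp6a17 stood at 15.5, 18.0 and 7.71 FPKM against 2.95, 3.86, 3.61 and 3.79 FPKM (1.62, SE 0.26, adjusted p = 0.0096). Glutathione S-transferase genes diverged, with 3 of 26 higher and 3 lower, together 23.1% beside 16.2% of all tested genes. GstD9 stood at 17.3, 17.2 and 13.1 FPKM in PhoKO and at 43.0, 42.0, 39.5 and 47.4 FPKM in SppsKO (-1.39, SE 0.10, adjusted p = 0.000284), and GstE1 at 36.0, 35.2 and 28.9 FPKM against 12.3, 15.5, 14.6 and 15.6 FPKM (1.15, SE 0.10, adjusted p = 0.000635). The lower count of this family was 1 without PhoKO 2 or SppsKO 2 and 5 without PhoKO 3.

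Of 48 cuticle protein genes, 11 were higher and 5 lower in PhoKO. Their median was 0.32 (0.142 without PhoKO 2 and 0.0598 with no filter). The higher count was 6 without PhoKO 2, where 39 of these genes were tested, and 7 without SppsKO 2 or SppsKO 3. TwdlV stood at 2.23, 3.23 and 3.66 FPKM in PhoKO and at 0.282, 0.412, 0.7503 and 0.583 FPKM in SppsKO (1.42, SE 0.16, limma adjusted p = 0.0017). It passed the filter through its PhoKO libraries alone. Cpr60D ranged from 9.50 to 30.6 FPKM against 1.79 to 3.18 FPKM (2.27, SE 0.38, adjusted p = 0.0136), a call lost in the fit with all 10 libraries (adjusted p = 0.0646). Lcp65Ac, at 42.7, 9.63 and 7.26 FPKM against 0.310, 0.362, 0.185 and 1.25 FPKM, was called at 3.41 (SE 0.62, adjusted p = 0.0192), and lost its call without SppsKO 1, SppsKO 2 or SppsKO 3 (adjusted p 0.0606 to 0.0637) and with a pseudocount of 5 (adjusted p = 0.0587).

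Single genes with large differences came next. The p24 family gene p24-2, whose product carries cargo between the endoplasmic reticulum and the Golgi, stood at 21.3, 40.1 and 27.7 FPKM in PhoKO. It was listed at 0 in SppsKO 1 and 2 and stood at 0.0317 and 0.0376 FPKM in SppsKO 3 and 4 (4.87, SE 0.18, limma adjusted p = 1.23e-05). It has near-identical relatives, so its value is uncertain. The sodium channel gene ppk13 stood at 11.7, 10.9 and 8.53 FPKM against 1.80, 1.93, 1.04 and 2.19 FPKM (2.06, SE 0.17, adjusted p = 0.000395), and Ela at 7.65, 3.29 and 7.08 FPKM against 0.477, 0.695, 0.668 and 0.751 FPKM (2.03, SE 0.23, adjusted p = 0.00176). All 3 were apart in every library, which the rule that named them required. Both p24-2 and Ela passed the filter through their PhoKO libraries alone, and the fits without a PhoKO library did not test them. The dehydrogenase gene Aldh, at 88.0, 64.9 and 34.4 FPKM against 14.2 to 19.1 FPKM, was called at 1.71 (SE 0.32, adjusted p = 0.022), and lost without PhoKO 2 or any of SppsKO 1, 2 and 3 (adjusted p 0.0613 to 0.0786). The mucin gene Muc68Ca was called at 2.62 (SE 0.62, adjusted p = 0.0411) and lost without PhoKO 1, PhoKO 2, SppsKO 1, SppsKO 2 or SppsKO 4 (adjusted p 0.0843 to 0.125) and with a pseudocount of 5 (adjusted p = 0.0587).

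The 3 largest differences of all called genes belonged to genes without a name beyond their number, and their levels varied widely inside PhoKO. CG32198 stood at 1321, 136.1 and 111.3 FPKM in PhoKO and at 0.760, 0.564, 3.02 and 0.163 FPKM in SppsKO (7.17, SE 1.02, limma adjusted p = 0.0109). CG11300 (5.94) and CG13560 (5.84) followed, and CG14237 stood at 4.34. Their PhoKO values ranged from 54.9 to 1060 FPKM, from 41.9 to 398.2 FPKM and from 10.2 to 178.6 FPKM, all above the SppsKO values. Each of the 3 lost its call without some libraries: CG11300 without PhoKO 3 or any 1 SppsKO library (adjusted p 0.0558 to 0.0846), CG13560 without PhoKO 2, SppsKO 1 or SppsKO 2 (adjusted p 0.058 to 0.0642), and CG14237 without any 1 library other than PhoKO 3 (adjusted p 0.0836 to 0.122). CG11300 also lost it with a pseudocount of 0.1 (adjusted p = 0.0571). CG14237 lost it with a pseudocount of 5, a filter at a mean of 5 FPKM and quantile normalization (adjusted p = 0.0711, 0.0501 and 0.0502).

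**Figure D5:**
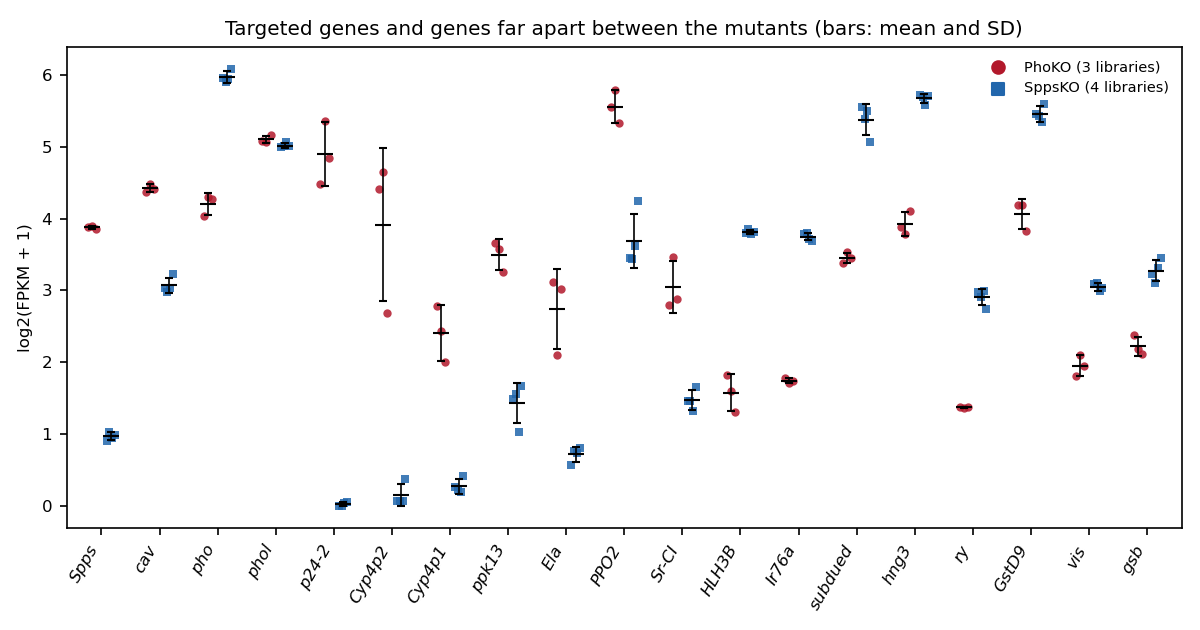
Levels of the targeted genes, of cav and phol, and of 15 other genes named in the text are shown as log2(FPKM + 1), with 1 point per library, circles for PhoKO and squares for SppsKO, and bars for the mean and SD. Spps, cav and p24-2 to Sr-CI are higher in PhoKO, pho and HLH3B to gsb are lower, and phol lies close in both groups.

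The genes lower in PhoKO included several of known function. The bHLH gene HLH3B stood at 2.54, 2.04 and 1.47 FPKM in PhoKO and at 12.9, 13.5, 12.7 and 13.1 FPKM in SppsKO, a log2 difference of -2.24 (SE 0.11, limma adjusted p = 5.21e-05). The ionotropic receptor gene Ir76a stood at 2.44, 2.26 and 2.34 FPKM against 12.8, 12.9, 12.1 and 11.9 FPKM (-2.004, SE 0.06, adjusted p = 3.17e-06). The gene subdued, which encodes a calcium-activated chloride channel, stood at 9.43, 10.5 and 9.90 FPKM against 45.7, 40.9, 44.1 and 32.4 FPKM (-1.92, SE 0.11, adjusted p = 0.000121). SppsKO was between 3.52 and 6.47 times PhoKO in the means of these and of hng3, which stood at 13.7, 12.7 and 16.3 FPKM against 51.5, 50.6, 47.0 and 51.4 FPKM (-1.75, SE 0.08, adjusted p = 2.27e-05).

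The xanthine dehydrogenase gene ry, a classical eye colour marker, stood at 1.59, 1.58 and 1.60 FPKM in PhoKO and at 6.86, 6.53, 6.94 and 5.70 FPKM in SppsKO (-1.53, SE 0.08, limma adjusted p = 6.35e-05). It was the called member of 4 tested eye colour genes, and whether the groups carry different ry alleles is not stated in the labels. The homeobox gene vis stood at 2.49, 3.27 and 2.85 FPKM against 7.48, 7.58, 6.92 and 7.15 FPKM (-1.10, SE 0.08, adjusted p = 0.000278). The guanylyl cyclase gene Gyc-89Da was called at -1.07 (SE 0.08, adjusted p = 0.000284), the ribosomal protein paralog RpS5b at -1.13 (SE 0.14, adjusted p = 0.00229) and the homeobox gene PHDP at -0.96 (SE 0.11, adjusted p = 0.00188). The lectin gene lectin-28C was called at -1.33 (SE 0.26, adjusted p = 0.0236) and lost without PhoKO 1, PhoKO 3, SppsKO 1 or SppsKO 3 (adjusted p 0.0514 to 0.0792). Of genes with a number for a name, CR43242 stood at 4.19, 3.38 and 3.96 FPKM against 15.7, 15.3, 15.4 and 17.2 FPKM (-1.81, SE 0.07, adjusted p = 1.8e-05), and CG3649 was called at -2.12 (SE 0.16, adjusted p = 0.000409). CG12607 was called at -1.83 (SE 0.41, adjusted p = 0.0299) and lost without any 1 library other than PhoKO 1 (adjusted p 0.0615 to 0.0961) and with a pseudocount of 0.1 (adjusted p = 0.065).

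The glue gene Sgs4 of the salivary gland had the largest fall of the named genes. It stood at 0.948, 0.586 and 1.17 FPKM in PhoKO and at 11.9, 8.71, 114.1 and 53.4 FPKM in SppsKO (-3.98, SE 0.97, limma adjusted p = 0.0497). Its call was lost without any 1 of the 7 libraries (adjusted p 0.0554 to 0.146), with a pseudocount of 5 (adjusted p = 0.103), with array weights (adjusted p = 0.0706) and with a filter at a mean of 5 FPKM (adjusted p = 0.0534). Of 10 glue genes it was the 1 called (10%, beside 16.2% of all tested genes), and their median was -1.07. The median was -2.015 without PhoKO 1 and -0.441 without SppsKO 3, and without PhoKO 3 it turned to 0.061 with 2 glue genes called higher. With array weights 2 were called higher and 0 lower, at a median of -0.599, and with no filter the median was -0.159. The summed FPKM of 10 salivary gland markers ranged from 125.3 to 1539 in PhoKO and from 330.6 to 3056 in SppsKO, so these sums overlapped. Muscle genes also varied inside groups, with 1 of 18 called (5.56%, beside 16.2% of all tested genes). Without PhoKO 1, PhoKO 2 or any of SppsKO 1, 2 and 3, 0 of 18 were called. Their median was 0.94, with sums of 328.1 to 1073 FPKM in PhoKO and 177.3 to 330.0 FPKM in SppsKO. Without PhoKO 3, 3 muscle genes were called higher, and without PhoKO 1 the median was 0.54.

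Sensory and clock genes included several with a level near 0 in one mutant. The sugar receptor genes Gr64a and Gr64b lie side by side. Gr64a was listed at 0 in PhoKO 1 and 3, stood at 0.0174 FPKM in PhoKO 2, and lay at 2.103, 2.72, 2.85 and 2.46 FPKM in SppsKO (-1.81, SE 0.11, limma adjusted p = 9.39e-05). Gr64b was listed at 0 in the same PhoKO libraries and lay at 1.34, 1.70, 1.35 and 1.22 FPKM in SppsKO (-1.25, SE 0.11, adjusted p = 0.000549). Of 21 chemosensory genes tested, 2 were higher and 3 lower in PhoKO, together 23.8% beside 16.2% of all tested genes. Without PhoKO 1, PhoKO 2 or SppsKO 2, 1 was higher. The clock gene per stood at 0.734, 0.662 and 0.548 FPKM in PhoKO and at 3.18, 3.07, 2.68 and 2.51 FPKM in SppsKO (-1.23, SE 0.10, adjusted p = 0.000399). Another clock gene, cyc, was lower by less (-0.36, SE 0.04, adjusted p = 0.000842), and per and cyc were the called members of 5 clock genes. Gr64a, Gr64b and per passed the filter through their SppsKO libraries alone. The Methuselah-like receptor gene mthl3 stood at 64.4, 75.0 and 70.4 FPKM against 39.4, 40.7, 41.9 and 40.0 FPKM (0.77, SE 0.05, adjusted p = 0.000198).

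Of 11 genes of sex determination and dosage compensation, 1 was higher and 1 lower, together 18.2% beside 16.2% of all tested genes. The male dosage compensation RNAs roX1 and roX2 stood at 0.35 (SE 0.11, limma adjusted p = 0.0807) and -0.14 (SE 0.11, adjusted p = 0.432) and were not called. The courtship gene fru stood at 27.3, 30.7 and 26.5 FPKM in PhoKO and 18.6, 19.8, 18.5 and 16.9 FPKM in SppsKO (0.58, SE 0.07, adjusted p = 0.00168). The sex determination gene dsx was called at -0.46 (SE 0.11, adjusted p = 0.0313), and lost without PhoKO 2 or any 1 SppsKO library (adjusted p 0.0541 to 0.0778) and with no filter (adjusted p = 0.0525).

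Called genes were spread over the chromosome arms. Shares of tested genes called were 17.8% on 2L, 16.3% on 2R, 17.2% on 3L, 16.1% on 3R, 13.8% on X and 11.1% on chromosome 4, where 9 of 81 were called. On X, 80 genes were higher and 135 lower in PhoKO. Of 9407 pairs of neighbouring tested genes, both were called in the same direction in 202 (2.15%) and in opposite directions in 115 (1.22%). There were 22 runs of 3 or more neighbours called in the same direction, and the longest held 5 genes. The genes HLH3B, CG2652 and per formed such a run on X, lower in PhoKO by between 1.04 and 2.24 on the log2 scale. The genes CG11594, Gr64a and Gr64b formed another on 3L, lower by between 1.02 and 1.81, and ph-d, ph-p and CG3835 one on X, higher by between 0.53 and 1.47.

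In the remaining lists the share of tested members called ran from 0% to 40.0%, beside 16.2% of all tested genes. Of 13 Hedgehog pathway genes 2 were lower, of 13 Dpp and wing target genes 1, and of 8 genes of the odd, sloppy-paired and knirps pairs 2, with 0 higher in each. Of 14 wing selector genes 2 were higher, of 8 Iroquois and notum genes 1 and of 6 FGF genes 1, with 0 lower in each. Of 17 Hippo and Fat genes 1 was higher and 2 lower. Of 12 glycolysis genes 2 were lower, of 5 germline genes 1 and of 5 histone genes 2, the last including the repeated gene His1:CG33840, whose value is uncertain. Of 11 fat body genes 1 was higher. Limma called 0 of 16 insulin genes, 0 of 13 gut genes, 0 of 5 UDP-glycosyltransferase genes and 0 of 8 tracheal genes. Of these 2, 1, 2 and 0 passed an unadjusted p under 0.05, beside 3052 of all 9514 tested genes. Of 10 Methuselah-like genes 1 was higher and 2 lower, and of 13 disc epithelium markers 1 was higher and 3 lower. Many of these counts changed when 1 library was left out. The Hedgehog and Dpp counts of lower genes were 0 without PhoKO 1, PhoKO 2 or any of SppsKO 1, 2 and 3. The odd, sloppy-paired and knirps count was 0 without SppsKO 3 and 1 without PhoKO 2 or SppsKO 1. The wing selector count was 1 without PhoKO 2, PhoKO 3, SppsKO 2 or SppsKO 3, the FGF count 0 without PhoKO 2 or SppsKO 2, and the germline count 0 without SppsKO 2 or SppsKO 3. The Hippo and Fat count of higher genes was 0 without any 1 library other than SppsKO 4. The lower count there was 0 without PhoKO 1, PhoKO 2 or SppsKO 3 and 1 without PhoKO 3, SppsKO 1, SppsKO 2 or SppsKO 4. The Methuselah-like count of lower genes was 0 without SppsKO 3 and 1 without PhoKO 1, PhoKO 2, SppsKO 1, SppsKO 2 or SppsKO 4, where the last gave 2 higher. The disc epithelium counts were 2 higher and 0 lower without PhoKO 1, 0 and 0 without PhoKO 2 or SppsKO 3, 0 and 1 without SppsKO 1 or SppsKO 2, and 0 and 3 without PhoKO 3 or SppsKO 4. The fat body count was 0 without PhoKO 1, PhoKO 3 or any of SppsKO 1, 2 and 3 and 3 without PhoKO 2.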

How the data were processed

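Poly(A) RNA of 7 mutant libraries was compared, and 42 ChIP-Seq samples were not analysed here. The authors deposited 1 table of FPKM, already normalized, with a value for each gene and library. TopHat2 2.1.1, HTSeq, Cufflinks, Cuffnorm and DESeq2 are among the tools that the submitters' processing notes name, and BDGP5 and dm3 are the builds. They do not say how the FPKM were made, on which annotation, or whether strand was used, so overlapping genes and near-identical copies can share fragments.

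Values were taken as log2(FPKM + 1), which understates differences of genes with low values. Genes at 1 FPKM or more in at least 3 of the 7 libraries were fitted with limma 3.58.1 in R 4.3.3 (eBayes with trend and robust, no covariate), a procedure tested on simulated data. Benjamini-Hochberg adjustment ran over the 9514 genes. A gene under 1 FPKM in every library of either mutant passed the filter only through the other mutant. The p-value of such a gene is therefore not support independent of the filter. The filter was set anew in each fit without a library, so some lists hold fewer tested genes there. Since FPKM is not a count, no count test was run. In this fit, replicates with the same number were not paired.

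The comparison, the 61 gene lists and the rule for named genes were chosen with earlier results of these data known. The rule names the targeted genes and phol, the Hox genes, the 14 largest differences in each direction among called genes that do not overlap and average 2 FPKM or more (with 4 more that have only a number), up to 6 members per list by adjusted p, roX1, roX2, and called genes near pho and Spps. Outside it, CG2652, CG11594 and CG3835 were named after their values were seen. Symbols were matched to the Release 6 plus ISO1 MT assembly for 16299 of 16502 genes, used only for names, arms and gene order. Alternatives were pseudocounts of 0.1 and 5, other filters, scalings and weights, plain eBayes, all 10 libraries, a block and leaving out each library.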

Additional observations from a re-analysis of the deposited data

Results flagged for a closer look

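Among the 135 genes checked in the 4 SppsKO libraries, 9 had a library far from the other 3, with a gap to them above Dixon's critical value. Chance gives about 1 in 20 groups, and groups of 3 such as PhoKO were not checked. In 7 of the 9 the library was SppsKO 4. It was the lowest for ph-p at 29.9 FPKM (others 35.8 to 36.9), for Su(z)2 at 7.02 FPKM (others 8.61 to 8.88) and for h at 27.8 FPKM (others 29.1 to 29.3). It was the highest for Bap60 at 158.0 FPKM (others 145.9 to 147.7), for repo at 17.7 FPKM (others 16.4 to 16.6), for Cyp4p2 at 0.295 FPKM (others 0.0461 to 0.0527) and for His1:CG33840 at 2.65 FPKM (others 1.95 to 1.97). For baz SppsKO 2 was highest at 28.5 FPKM (others 26.4 to 26.7), and for Akh SppsKO 1 was lowest at 33.8 FPKM (others 38.7 to 39.7). All 9 genes were called both with the outlying library and in the fit without it.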

How the results depend on the processing

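The count of 1539 called genes was 2568 with array weights (1238 higher, 1330 lower in PhoKO) and lay between 1205 and 1540 under the other pseudocounts, filters, scalings, plain eBayes and the fit with all 10 libraries. Leaving out 1 library gave 832 to 1530 called genes, 414 to 777 higher and 418 to 753 lower. Genes called with a difference of 1 or more numbered 264 with a pseudocount of 0.1, 51 with a pseudocount of 5 and 83 with a filter at a mean of 5 FPKM, where fewer genes are tested. Leaving out 1 library gave 117 to 171 of them. With the replicate number as a block over numbers 1 to 3, 640 genes were called (326 higher, 314 lower). Of the 124 called genes checked singly, 90 kept the call in that fit. Deviations of same-numbered libraries correlated at 0.10, -0.15 and -0.23, and 1 of 7 libraries was closest to its own number. SppsKO 4 has no PhoKO library of its number and could not match. With so few libraries, these values cannot tell whether the numbers pair the samples. No gene called both here and under 1 of these alternatives had opposite signs in the pair; alternatives were not compared with each other. Among the 124 called genes checked singly, 96 kept the call in every fit without a library that tested them. Among the genes checked singly, signs turned for 3 Hox genes that were not called. The difference of abd-A ranged from -0.157 to 0.0657 without 1 library (0.00497 without SppsKO 2), Abd-B from -0.0361 to 0.106, and under quantile normalization Abd-B was -0.0907 and Dfd -0.12. Promoter motifs were planned and not run, since no promoter sequences were used here. Some list medians turned as well, among them glue genes (0.061 without PhoKO 3) and trithorax group genes (-0.0222 without SppsKO 4). The cause of these changes was not tested. Depth limits genes of low FPKM most, above all in PhoKO 1.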

Other observations

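Levels in the 3 WT libraries were set beside the called genes as a description, with no test. For 989 of the 1539 called genes (64.3%) the WT mean on the log2(FPKM + 1) scale lay between the means of both mutants. It was nearer to SppsKO for 861 and nearer to PhoKO for 678. Among the 161 with a difference of 1 or more these counts were 75 and 86.

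Several large differences placed WT with one mutant. HLH3B lay between 2.19 and 2.97 FPKM in WT, beside a mean of 2.02 FPKM in PhoKO and 13.1 FPKM in SppsKO. The same held for subdued, at 9.55 to 10.6 FPKM in WT against means of 9.96 and 40.8 FPKM, for ry, at 1.72 to 1.86 FPKM against 1.59 and 6.51 FPKM, and for per, at 0.875 to 1.16 FPKM against 0.648 and 2.86 FPKM. Ir76a, in contrast, lay at 13.6 to 19.6 FPKM in WT, beside 12.4 FPKM in SppsKO and 2.35 FPKM in PhoKO, and hng3 at 42.9 to 49.3 FPKM, beside 50.1 and 14.2 FPKM. Cyp4p2 stood at 75.9 to 92.6 FPKM in WT, above the mean of 16.6 FPKM in PhoKO and of 0.112 FPKM in SppsKO. Cyp6a17 was lower in WT than in either mutant, at 0.0164 to 0.136 FPKM beside 13.7 and 3.55 FPKM. The telomere gene cav lay at 17.6 to 23.9 FPKM in WT, beside 20.4 FPKM in PhoKO and 7.41 FPKM in SppsKO. The summed FPKM of the blood cell list lay between 290.3 and 376.0 in WT.

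A few genes were near 0 in every library of one mutant, under 0.1 FPKM, and at 1 FPKM or more in every library of the other. They were 7 genes near 0 in PhoKO and 3 near 0 in SppsKO, chosen after their values were seen. WT was under 0.1 FPKM in all its libraries for 4 of the 7 (CG4714, Gr64a, Gr64b and His1:CG33840) and for all 3 of the others (CG14423, p24-2 and a small nucleolar RNA gene). CG32581 and CR44539 were present in WT, CG32581 at 17.5 to 19.7 FPKM beside 4.198 to 7.14 FPKM in SppsKO. CG14423 stood at 7.72, 8.89 and 4.97 FPKM in PhoKO and was listed at 0 in each SppsKO library.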
